A study of Homo sapiens with 6 samples.

Results

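The genes described here encode proteins of desmosomes, tight junctions and gap junctions, contacts that join epithelial cells, with polarity proteins and nectins beside them. They were taken from the count table by gene symbol: claudins, zonula occludens proteins (TJP), desmogleins, desmocollins, plakophilins, connexins of the GJA, GJB and GJC groups, the MARVEL domain family, NECTIN1, NECTIN3 and NECTIN4, the PARD3 and PARD6 polarity genes, and DSP, JUP, OCLN, F11R, CGN, CGNL1, CXADR, PATJ, MPDZ and CRB3. This rule found 50 of the 19469 genes in the table, and all 50 passed the filter on low counts. They were 10 desmosome genes, 10 claudins, 6 other tight junction membrane proteins, 4 tight junction plaque genes, 8 polarity genes, 3 nectins and 9 connexins. A further 26 genes that match the rule in the GENCODE release 44 annotation, 14 of them claudins and 8 connexins, were not analysed here.

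RNA came from L3.6pl, an established human pancreatic cancer line from a lymph node metastasis of an adenosquamous carcinoma, which the sample labels also write as L6.6pl. Untreated cells grown in DMEM with serum were sorted by FACS into cells with high surface L1CAM (L1high, labelled L1CAM_POSITIVE, 3 libraries) and cells with low surface L1CAM (L1low, labelled L1CAM_NEGATIVE, 3 libraries). Gates were set with an isotype control and dead cells were left out by 7AAD. Both populations came from the same line, so each group models a state within that line and not a tumor. Nothing in the labels says whether the libraries of a group came from separate cultures or sorts, and the p-values measure only the spread between these libraries. The libraries held between 16334610 and 21064685 counts. The transcript of the sorting marker L1CAM stood at 81.1 ± 10.2 CPM (counts scaled to a common library size with TMM factors) in L1high and 20.5 ± 3.01 in L1low cells (SD, n = 3 each), with no overlap between the groups.

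Desmosomes link keratin filaments of neighbouring cells through desmosomal cadherins (desmogleins and desmocollins), which bind plakoglobin, plakophilins and desmoplakin inside the cell. Tight junctions seal the space between cells with claudins, occludin and related membrane proteins, which are anchored by the zonula occludens proteins and placed by polarity complexes. Gap junctions are channels built from connexins, through which small molecules pass from cell to cell.

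The labelled cell type was checked against markers, of which those without a value in the table were not analysed here. All 5 epithelial markers (EPCAM, CDH1, KRT8, KRT18 and KRT19) and all 5 squamous markers (KRT5, KRT6A, KRT14, TP63 and SFN) were measured. The summed level of the epithelial markers ran from 2696 to 3069 CPM in L1high and from 3045 to 3233 CPM in L1low libraries, and that of the squamous markers from 4463 to 4570 and from 4816 to 5032 CPM. Single markers went both ways. KRT19 (881 to 1363 CPM), TP63 (299 to 649.6 CPM) and KRT14 (76.7 to 105 CPM) were called higher in L1low, EPCAM (237 to 193 CPM) and KRT6A (806 to 535 CPM) were called lower, and the other 5 were not called. Of the fibroblast markers, 2 of 8 had values (ACTA2 and LUM), with sums from 85.0 to 97.5 CPM in L1high and from 138 to 159 CPM in L1low libraries, LUM being called higher in L1low. Of the endothelial markers only PECAM1 was measured (11.3 to 11.9 against 13.2 to 14.7 CPM), and of the leukocyte markers only CD68 (8.42 to 8.81 against 9.37 to 11.3 CPM). The part of these differences in the results below was not tested. In sorted bulk RNA, a change in the share of cells that express a gene and a change in RNA per cell cannot be told apart.

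Between L1low and L1high cells, 8 of the 50 junction genes (16.0%) were called at an edgeR-adjusted p under 0.05, beside 7.95% of all genes. The edgeR-adjusted p comes from the quasi-likelihood F test, adjusted by Benjamini-Hochberg over the whole table of 19467 tested genes. Of the 8 called junction genes, 4 rose in L1low cells (GJB2, GJB6, MARVELD1 and DSC3), beside 4.58% of all genes, and 4 fell (DSP, CLDN4, CLDN7 and NECTIN4), beside 3.37%. The median log2 fold change (L1low over L1high, so that positive values mean higher in L1low) of the 50 genes was 0.062, and that of all genes was -0.0087. The libraries of the groups did not overlap in 20 junction genes, 11 higher and 9 lower in L1low, where 28.8% of all genes did not overlap, 15.2% higher and 13.7% lower. The largest called differences were in 2 neighbouring connexin genes and in NECTIN4, and the other called genes differed by at most 1.34-fold.

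**Figure D1:**
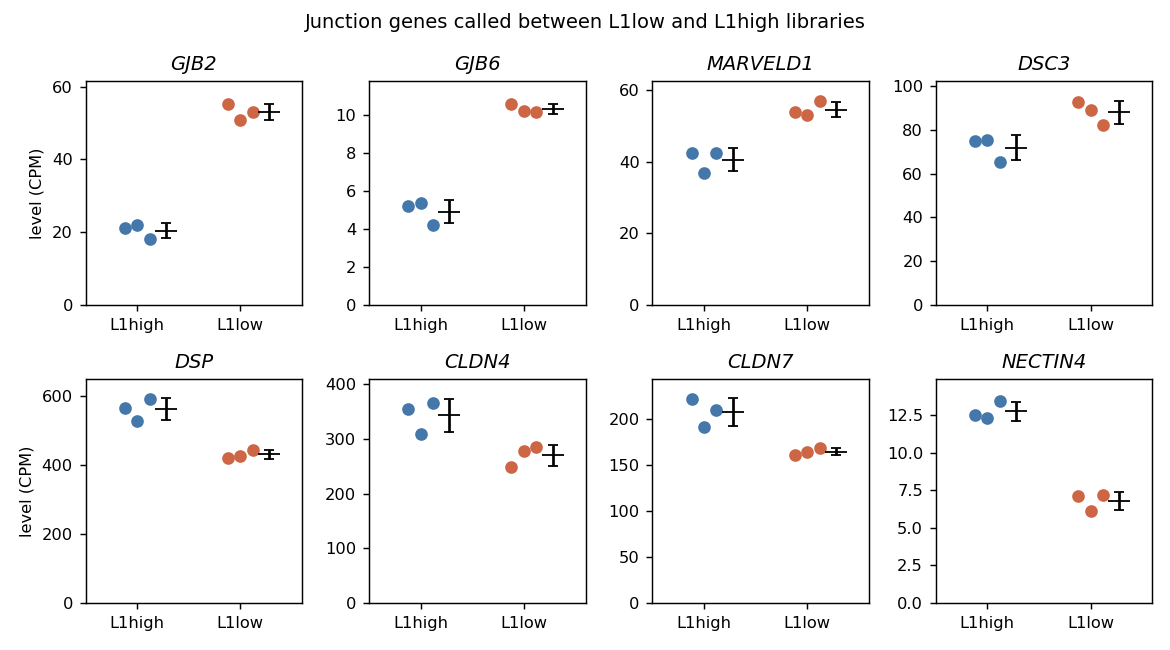
Level in CPM (vertical axis, starting at 0) of the 8 called junction genes in each library. Points are libraries in the order of their replicate number, and the black mark and bar give the mean ± SD (n = 3). In each panel the L1low and L1high points do not overlap, with GJB2 between 18.3 and 22.0 CPM in L1high and between 50.9 and 55.1 CPM in L1low.

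The upstream sequences of GJB2 and NECTIN4 are shown because these genes carry the largest rise and the largest fall. Each is the 250 bases before the RefSeq transcription start on GRCh38.p14, written 5′ to 3′ on the strand of the gene, and capitals mark matches to 6 motifs that were searched on both strands. The windows are chr13:20192939-20193188 (minus strand, GJB2) and chr1:161089559-161089808 (minus strand, NECTIN4), and neither overlaps an exon in GENCODE release 44.
GJB2: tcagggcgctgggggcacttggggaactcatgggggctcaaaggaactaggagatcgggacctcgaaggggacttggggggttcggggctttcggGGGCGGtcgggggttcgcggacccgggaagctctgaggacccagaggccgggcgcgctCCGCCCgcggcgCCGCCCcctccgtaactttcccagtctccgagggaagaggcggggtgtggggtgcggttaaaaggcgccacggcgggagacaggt
NECTIN4: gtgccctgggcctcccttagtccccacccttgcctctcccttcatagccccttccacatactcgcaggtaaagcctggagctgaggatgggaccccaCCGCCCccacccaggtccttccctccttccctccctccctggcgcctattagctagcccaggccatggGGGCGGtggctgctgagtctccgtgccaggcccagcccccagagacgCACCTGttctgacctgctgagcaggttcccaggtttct

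The motifs were the E-box CACCTG, the AP-1 motif TGANTCA (N is any base), the TEAD motif GGAATG, the GC box GGGCGG, the CCAAT box and the TATA box TATAAA. No matches overlap each other in the windows shown. The GJB2 window, with a GC content of 70.0%, held 3 GC boxes, which begin 155, 97 and 85 bases before the start. The NECTIN4 window, with a GC content of 65.2%, held 2 GC boxes, at 153 and 85 bases, and an E-box at 38 bases before the start. Upstream windows were matched for 34 of the 50 junction genes, among them all 8 called ones. A gene was counted if any of its windows held the motif, and some genes, such as CLDN7, have several. The shares of all RefSeq windows are per window, so the counts and shares below are in unlike units. The E-box stood in windows of 3 of the 8 called genes (CLDN7, DSP and NECTIN4, which fell) and none of the 4 that rose. It was found in 12 of the 34 matched genes and in 17.5% of all 35116 RefSeq windows. The AP-1 motif was in 4 of the 34, CLDN4 (which fell) being the called gene among them, and in 6.57% of all windows. The GC box was in 27 of the 34 and in 42.6% of all windows. Its called genes were GJB2 and MARVELD1, which rose, and CLDN4, CLDN7, DSP and NECTIN4, which fell. The TEAD motif and the TATA box were in no window of the 34 genes (11.9% and 10.7% of all windows). The CCAAT box was in 12 of the 34 genes (32.0% of all windows), among them DSC3, which rose, and CLDN7, which fell. A match describes these letters and does not show a bound site.

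Among the 9 connexins, GJB2 and GJB6 rose in L1low cells and none fell, beside 4.58% and 3.37% of all genes. GJB2 (ENSG00000165474, GRCh38 chromosome 13, bases 20187463 to 20192938, minus strand) encodes connexin 26, a channel protein of stratified and glandular epithelia. It stood at 21.2, 22.0 and 18.3 CPM in L1high replicates 1, 2 and 3 and at 55.1, 50.9 and 53.0 CPM in L1low replicates 1, 2 and 3. Every L1low library lay above every L1high library by more than the range within either group. The level rose 2.58-fold, a log2 fold change of 1.37 (SE 0.09, edgeR-adjusted p = 5.1e-06). GJB6 (ENSG00000121742, same strand, from 20221962 to 20232365) encodes connexin 30, a close relative. It stood at 5.19, 5.35 and 4.20 CPM in L1high and at 10.6, 10.2 and 10.1 CPM in L1low libraries, which rest on 110, 110 and 69 counts and on 192, 183 and 179 counts. The groups did not overlap, and the log2 fold change was 1.06 (SE 0.13, edgeR-adjusted p = 5.6e-04).

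GJB2 and GJB6 lie 29.0 kb apart. GJB5 had a log2 fold change of 0.069 (95% interval from -0.14 to 0.27), and its libraries overlapped. GJA1 (connexin 43), the most widely expressed connexin in many tissues, ran from 38.7 to 60.2 CPM in L1high and from 48.6 to 60.6 CPM in L1low libraries, and the groups overlapped. GJB7 and GJC1 were near the lower end of the table, at means of 1.42 and 1.54 CPM in L1high cells, and neither was called.

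Scaled to the length of the canonical transcript, the 9 connexins together stood at 70.6, 71.7 and 65.4 CPM per kb in L1high and at 94.6, 93.96 and 91.8 in L1low libraries. GJB2 made up 12.9 ± 0.618% of this sum in L1high and 24.8 ± 0.979% in L1low cells (SD, n = 3 each), and GJB6 made up 3.43 ± 0.276% and 5.33 ± 0.0778%. In L1high cells GJB2 ranked below GJA1 and GJB5 by this measure, and in L1low cells it ranked above both. The other 7 connexins summed to 57.9 ± 2.20 CPM per kb in L1high and 65.3 ± 1.52 in L1low cells (SD, n = 3 each). These sums hold the called genes and are given as a description.

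**Figure D2:**
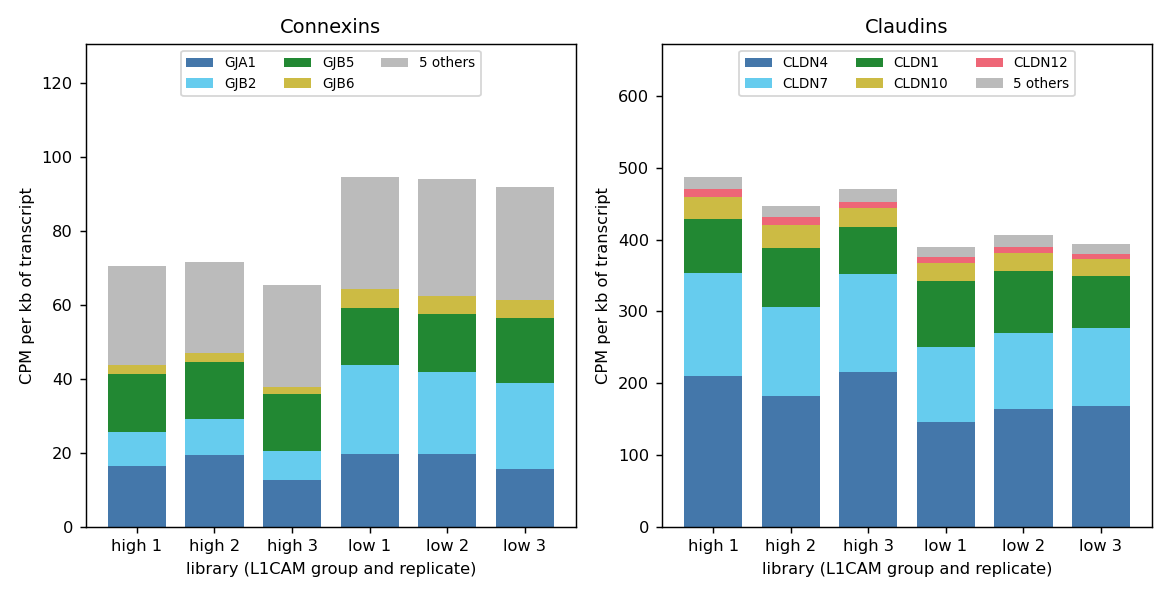
Stacked level of connexins (left) and claudins (right) in each library, in CPM per kb of canonical transcript (vertical axis, starting at 0), with the genes not named summed in grey. Horizontal axis: L1high and L1low libraries by replicate. The connexin stacks end between 65.4 and 71.7 in L1high and between 91.8 and 94.6 in L1low libraries, with the GJB2 segment taller in L1low, while the claudin stacks end between 447 and 487 in L1high and between 390 and 407 in L1low libraries.

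Of the 10 claudins, 2 fell in L1low cells (CLDN4 and CLDN7) and none rose, beside 3.37% and 4.58% of all genes. Without adjustment, 5 claudins had a p under 0.05 in the direction of lower in L1low and none in the other direction, beside 11.4% and 11.9% of all genes. DESeq2 called the same 2 claudins. The median log2 fold change of the claudins was -0.28, with 7 of the 10 below 0. CLDN4 (ENSG00000189143, chromosome 7, bases 73799542 to 73832690, plus strand) encodes claudin-4, a seal-forming protein of glandular epithelium, and was the most abundant claudin. It stood at 355, 309 and 366 CPM in L1high and at 248, 277 and 285 CPM in L1low libraries. All 3 L1low libraries lay below the lowest L1high library, replicate 2. The log2 fold change was -0.35 (SE 0.080, edgeR-adjusted p = 0.021). The call did not hold without L1high replicate 1 (adjusted p = 0.12), L1high replicate 3 (0.058), L1low replicate 1 (0.072) or L1low replicate 2 (0.088) in the same edgeR test.

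CLDN7 (ENSG00000181885, chromosome 17, bases 7259903 to 7263983, minus strand) encodes claudin-7, a lateral membrane protein of simple epithelia. It stood at 221, 191 and 209.6 CPM in L1high and at 161, 164 and 169 CPM in L1low libraries. The groups did not overlap, and the log2 fold change was -0.33 (SE 0.070, edgeR-adjusted p = 0.013). Without L1high replicate 1 or L1low replicate 2 its adjusted p was 0.099 and 0.084 in that test. A protein-coding gene on the same strand with overlapping exons, ENSG00000262302, held a mean of 968 counts against 3482 for CLDN7. It had a difference of -0.28 on the log2 scale (not called), so reads of the pair could have been split or counted for both. CLDN7 also overlaps exons of ELP5 on the other strand, which held a mean of 629 counts (log2 fold change 0.060, not called).

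CLDN3, which lies 29.3 kb from CLDN4, stood at 12.8, 12.3 and 13.3 CPM in L1high and at 8.42, 11.5 and 9.49 CPM in L1low libraries. These libraries did not overlap either, but the log2 fold change of -0.38 (95% interval from -0.67 to -0.096) was not called (edgeR-adjusted p = 0.10). CLDN10 showed the same kind of pattern, with a log2 fold change of -0.28 and an adjusted p of 0.063, and it was called without L1high replicate 3 (-0.33, edgeR-adjusted p = 0.034). CLDN1, the main claudin of stratified epithelium and the third in level per length, ran from 226 to 285 CPM in L1high and from 251 to 315 CPM in L1low libraries. Its groups overlapped, and its log2 fold change was 0.16 (95% interval from -0.059 to 0.38). CLDN12, CLDN15, CLDN23, CLDN22 and CLDN16 overlapped between the groups and were not called, and the last 2 of these held means from 1.15 to 1.46 CPM. CLDN12 overlaps exons of GTPBP10 and CDK14 on the same strand, and CLDN22 overlaps exons of WWC2 on the other strand, so their counts are uncertain. The same limit holds for CLDN10, which overlaps exons of DZIP1 on the other strand (means of 1244 and 904 counts). DZIP1 had a log2 fold change of -0.22 (not called). Outside the claudins, TJP3 overlaps exons of APBA3 in this way, MARVELD3 those of PHLPP2 and GJB7 those of SMIM8.

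Per kb of transcript the claudins summed to 469 ± 20.1 CPM in L1high and 397 ± 8.78 CPM in L1low cells (SD, n = 3 each). CLDN4, CLDN7 and CLDN1 made up 43.2%, 28.6% and 16.0% of this sum in L1high and 40.1%, 26.8% and 21.1% in L1low cells. The 8 claudins other than CLDN4 and CLDN7 summed to 132 ± 11.3 and 131 ± 11.97 CPM per kb (SD, n = 3 each). Within this sum the mean of CLDN1 went up, from 74.9 in L1high to 83.7 in L1low cells. The means of CLDN10 (29.4 to 24.3), CLDN12 (9.92 to 8.17) and CLDN3 (10.1 to 7.70) went down. A flat sum therefore does not show that its genes were unchanged, and these sums are given as a description. The order of the claudins by level was CLDN4, CLDN7, CLDN1, CLDN10 in both groups.

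Of the 10 desmosome genes, DSP fell and DSC3 rose in L1low cells, beside 3.37% and 4.58% of all genes. DSP (ENSG00000096696, chromosome 6, bases 7541338 to 7586714, plus strand) encodes desmoplakin, which ties the desmosome to keratin filaments. It stood at 565, 529 and 592 CPM in L1high and at 421, 427 and 445 CPM in L1low libraries. The highest L1low library lay below the lowest L1high library by more than the range of the L1low libraries. The level fell to 0.767 of that in L1high, a log2 fold change of -0.38 (SE 0.063, edgeR-adjusted p = 0.0033). The antisense gene DSP-AS1, which overlaps it, held a mean of 22.2 counts against 9294 for DSP.

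DSC3 (ENSG00000134762, chromosome 18, bases 30989365 to 31042815, minus strand) encodes desmocollin-3, a desmosomal cadherin of basal layers. It stood at 74.996, 75.3 and 65.1 CPM in L1high and at 92.5, 89.1 and 82.2 CPM in L1low libraries. The groups did not overlap, and the log2 fold change was 0.29 (SE 0.081) with an edgeR-adjusted p of 0.0499, just under the threshold. It was not called without L1high replicate 1 (adjusted p = 0.12), L1high replicate 3 (0.11), L1low replicate 1 (0.14) or L1low replicate 2 (0.19) in that edgeR test, nor with scaling by library size alone (0.063). The gene beside it, DSC2, 16.0 kb away, had a log2 fold change of -0.021 (95% interval from -0.22 to 0.18). The desmogleins DSG3 and DSG2, 19.5 kb apart on the same chromosome, had log2 fold changes of 0.17 and 0.13 with overlapping libraries.

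JUP (plakoglobin), an armadillo protein of desmosomes and adherens junctions, had the highest level per length of the 50 genes, at a mean of 198 CPM per kb. It ran from 612 to 736 CPM in L1high and from 692 to 734 CPM in L1low libraries, and its log2 fold change was 0.069 (95% interval from -0.089 to 0.23). Among the plakophilins, which cluster the desmosomal plaque, PKP1 stood at 29.4, 27.0 and 27.96 CPM in L1high and at 24.5, 24.1 and 24.5 CPM in L1low libraries. These libraries did not overlap, but the log2 fold change of -0.21 was not called (edgeR-adjusted p = 0.17). PKP3, PKP4 and PKP2 had log2 fold changes of 0.11, 0.083 and -0.013. Per kb, the desmosome genes summed to 375 ± 25.2 CPM in L1high and 380.2 ± 8.45 CPM in L1low cells (SD, n = 3 each), of which DSP made up 15.5 ± 0.229% and 11.7 ± 0.406%.

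**Figure D3:**
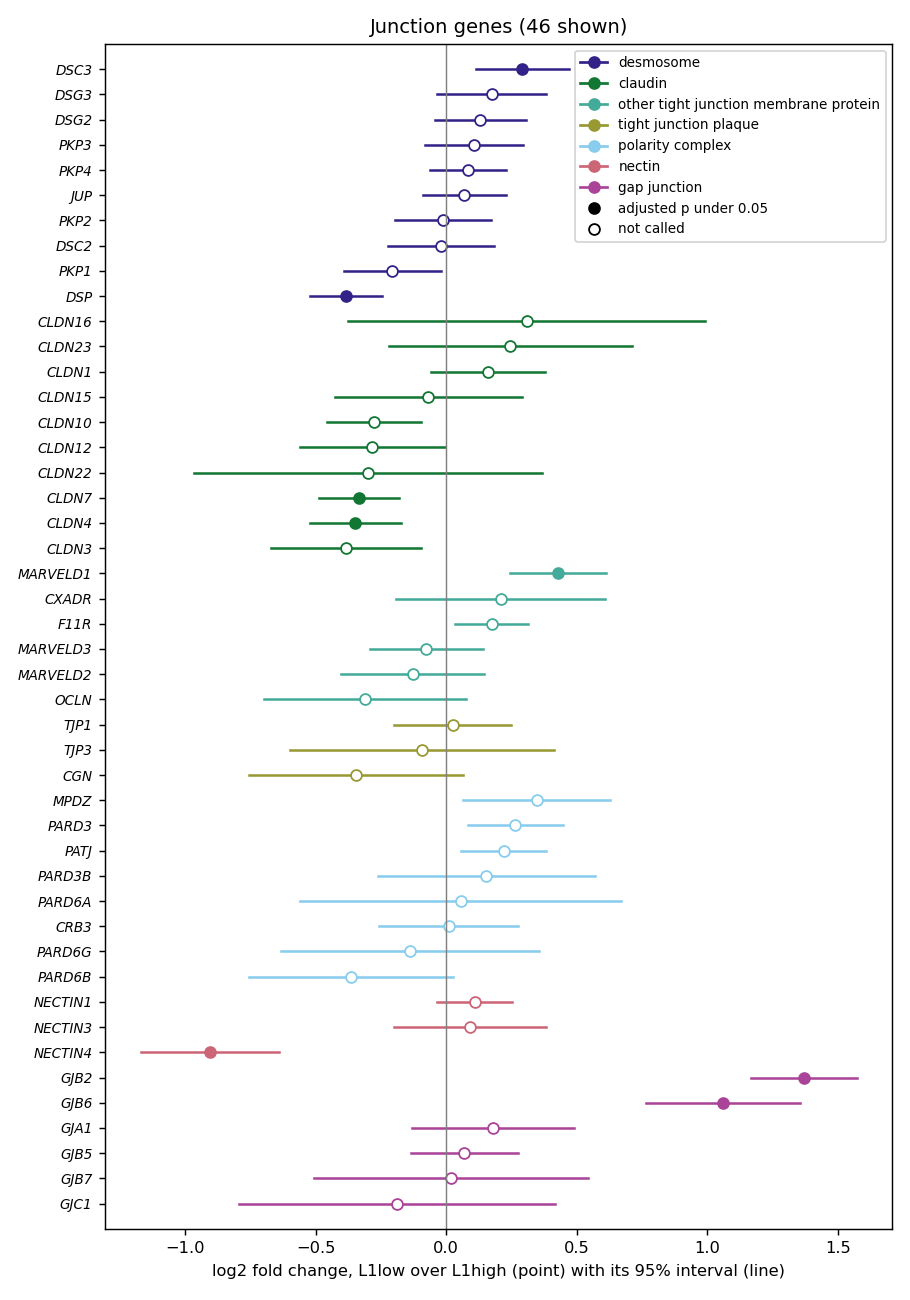
Log2 fold change of L1low over L1high (horizontal axis) for 46 of the 50 junction genes (vertical axis), grouped and coloured by junction type. Points are the fitted values, lines their 95% intervals, and filled points mark an adjusted p under 0.05. GJB2 (1.37) and GJB6 (1.06) lie farthest to the right and NECTIN4 (-0.91) farthest to the left.

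Of the 6 genes grouped here as other tight junction membrane proteins, MARVELD1 rose in L1low cells, beside 4.58% of all genes. MARVELD1 was placed in this group by its family symbol alone. MARVELD1 (ENSG00000155254, chromosome 10, bases 97713173 to 97718150, plus strand) belongs to the MARVEL domain family of membrane proteins that also holds occludin. It stood at 42.4, 36.9 and 42.5 CPM in L1high and at 53.8, 52.9 and 56.9 CPM in L1low libraries. The groups did not overlap, and the log2 fold change was 0.43 (SE 0.084, edgeR-adjusted p = 0.0094). The other family members were not called. MARVELD2 (tricellulin, of contacts where several cells meet) had a log2 fold change of -0.13, MARVELD3 one of -0.077 and OCLN (occludin) one of -0.31. OCLN held 65.8 counts per library on average and its copy OCLNP1 held 27.7, and reads of this pair may have been split. OCLN and MARVELD2 lie 48.0 kb apart on chromosome 5.

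F11R, which encodes junctional adhesion molecule A, was the most abundant of these 6 genes. It stood at 309, 279 and 312 CPM in L1high and at 339, 339 and 338 CPM in L1low libraries. The libraries did not overlap, but the log2 fold change of 0.17 (95% interval from 0.034 to 0.31) was not called (edgeR-adjusted p = 0.13). A gene on the same strand with shared exons, ENSG00000270149, held a mean of 3596 counts against 5941 for F11R. CXADR, an adhesion protein that also serves as a virus receptor, ran from 20.2 to 35.0 CPM in L1high and from 26.1 to 37.9 CPM in L1low libraries.

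No tight junction plaque gene was called by edgeR or DESeq2, and none of the 4 had an unadjusted p under 0.05, beside 23.3% of all genes. TJP1 (ZO-1) had a log2 fold change of 0.026 (95% interval from -0.198 to 0.25), TJP3 one of -0.093 and CGN (cingulin) one of -0.34 (95% interval from -0.75 to 0.064). CGN lay lower in every L1low library, at 2.45 to 3.28 CPM against 3.39 to 4.20 CPM in L1high libraries.

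Of the 8 polarity genes, none was called by edgeR or DESeq2, and 3 had an unadjusted p under 0.05, all higher in L1low, beside 11.9% of all genes in that direction. PARD3, the scaffold of the PAR complex, stood at 58.4, 63.7 and 62.8 CPM in L1high and at 70.5, 69.7 and 81.9 CPM in L1low libraries, with a log2 fold change of 0.26 (edgeR-adjusted p = 0.077). PATJ and MPDZ, paralogous multi-PDZ scaffolds of the Crumbs complex and the tight junction, had log2 fold changes of 0.22 (adjusted p = 0.10) and 0.35 (adjusted p = 0.13) in that edgeR test. In all 3 genes the L1low libraries lay above the L1high libraries. PARD6B, an adaptor of the same PAR complex, lay lower in every L1low library, with a log2 fold change of -0.36 (95% interval from -0.76 to 0.027). CRB3, a small membrane protein of the apical Crumbs complex with the highest level per length in this group, had a log2 fold change of 0.010 (95% interval from -0.26 to 0.28), and it overlaps exons of DENND1C on the other strand. PARD3B, PARD6A and PARD6G had means under 5 CPM in both groups and overlapped.

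NECTIN4 fell most of the 50 junction genes. Nectins are immunoglobulin-like adhesion molecules that start cell contacts, and NECTIN4 is the target of an antibody-drug conjugate used in urothelial cancer. Their relative NECTIN2 is held with the adherens junction genes of the second list below. NECTIN4 (ENSG00000143217, chromosome 1, bases 161070998 to 161089558, minus strand) stood at 12.5, 12.3 and 13.5 CPM in L1high and at 7.10, 6.13 and 7.17 CPM in L1low libraries, from 265, 253 and 221 counts and from 129, 110 and 127 counts. The highest L1low library lay well below the lowest L1high library. The level fell to 0.534 of that in L1high, a log2 fold change of -0.91 (SE 0.12, edgeR-adjusted p = 7.7e-04). F11R lies 49.7 kb from NECTIN4 on the same strand and had a value of the other sign, as given above. NECTIN1, the most abundant nectin, stood at 127, 117 and 126 CPM in L1high and at 132, 136 and 131 CPM in L1low libraries, a log2 fold change of 0.11 that did not reach the threshold (edgeR-adjusted p = 0.36). NECTIN3 had a log2 fold change of 0.092 with overlapping libraries.

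A second list held 38 genes of adherens junctions and of partners of desmosomes, tight junctions and connexins, of which 33 were measured. Of these, 5 rose and 1 fell in L1low cells, beside 4.58% and 3.37% of all genes, and the median log2 fold change was 0.047. The largest of these differences were in desmosome partners. PPL (periplakin), a plakin that links keratins to desmosomes and to the cornified envelope, stood at 130.4, 117 and 143 CPM in L1high and at 236, 253 and 247 CPM in L1low libraries. Its log2 fold change of 0.91 (SE 0.079, edgeR-adjusted p = 3.2e-05) was of the other sign from that of DSP, the plakin of the desmosome itself. KAZN (kazrin), a periplakin-binding protein, fell from 47.2, 48.3 and 48.6 CPM in L1high to 28.5, 30.2 and 29.5 CPM in L1low libraries, a log2 fold change of -0.71 (SE 0.077, edgeR-adjusted p = 1.8e-04). In both genes the groups did not overlap.

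Among 11 adherens junction genes, 3 rose and none fell in the edgeR test, beside 4.58% and 3.37% of all genes. Before adjustment, 3 had a p under 0.05 on the higher side and 2 on the lower side, beside 11.9% and 11.4% of all genes. LIMA1, an actin-binding protein, rose from 69.2 to 103 CPM (log2 fold change 0.57, edgeR-adjusted p = 3.6e-04), and CDH3 (P-cadherin), a cadherin of basal epithelium, rose from 222 to 276 CPM (0.31, adjusted p = 0.012). CDH1 (E-cadherin) stood at 77.6 CPM in L1high and 75.6 CPM in L1low cells, with a log2 fold change of -0.038. NECTIN2 (0.28, edgeR-adjusted p = 0.048) and, among 14 tight junction partners, MAGI1 (0.58, edgeR-adjusted p = 0.045) passed only narrowly. Without L1high replicate 1, the adjusted p from edgeR was 0.070 for CDH3, 0.19 for NECTIN2 and 0.062 for MAGI1. Without L1low replicate 2 it was 0.078, 0.22 and 0.18. NECTIN2 was also not called without L1high replicate 2 (adjusted p = 0.11) or L1low replicate 3 (0.10), or with RLE (0.051), upper-quartile (0.053) or library-size scaling (0.054), nor MAGI1 without L1high replicate 2 (0.12), L1high replicate 3 (0.092) or L1low replicate 3 (0.12), in that edgeR test. None of the 4 channel genes beside the connexins (PANX1, PANX2, CNST and GJD3) was called by edgeR or DESeq2, and none had an unadjusted p under 0.05.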

How the data were processed

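RNA of sorted L1high and L1low L3.6pl cells was sequenced as TruSeq stranded mRNA on a NextSeq 500. The authors aligned paired-end reads to GRCh38 (GRCh38.p13 in the submitters' processing notes) with BWA, which does not place reads across splice junctions, and used featureCounts with the Ensembl release 94 genes. Versions and the strand and multi-mapping options are not given in the sources used here. The deposited values are raw read counts of 19469 genes, each over 1 CPM in at least 2 of the 6 libraries.

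Symbols were found for 19344 identifiers in GENCODE release 44, which also gave coordinates and the length of the canonical transcript. All 6 libraries were fitted in R 4.3.3 with edgeR 4.0.16 (filterByExpr, TMM, quasi-likelihood test, group as the term), p-values adjusted by Benjamini-Hochberg across all 19467 genes that were fitted, and calls at an adjusted p under 0.05. The authors' own comparison sheet leaves out L1high replicate 3 without a stated reason, and that fit is an alternative. The standard error is the size of the log2 fold change divided by the square root of F. The 95% intervals use it with the total degrees of freedom of the test, residual plus prior. CPM carry TMM factors (0.984 to 1.01). No library was a duplicate of another: the smallest chi-square per degree of freedom between libraries of a group was 3.66 (L1high replicates 1 and 3). In counts simulated for this comparison (19469 genes, 200 changed by 1 on the log2 scale) the fit recovered 84.5% of the changed genes, and 18 of its 187 calls were genes simulated without a change. Smaller changes, such as those of DSP, CLDN4, CLDN7, DSC3 and MARVELD1, were not simulated, so the recovery does not apply to them.

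Named genes are the called junction genes and the most abundant of each type, with the rest by values, ranges and counts. Some genes are not reported here by name and stay in the sums and counts. ENSG00000262302, ENSG00000270149, OCLNP1 and DSP-AS1 were chosen for their overlap or similarity with members. The members, lists and motifs were chosen with earlier results of these data known. Alternatives were single libraries left out, the replicate number as a block, RLE, upper-quartile or library-size scaling, DESeq2 1.42.0, no filter, and at least 10 counts in every library.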

Additional observations from a re-analysis of the deposited data

How the results depend on the processing

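GJB2 (log2 fold change from 1.31 to 1.42), GJB6 (from 0.97 to 1.12), NECTIN4 (from -0.94 to -0.84), DSP (from -0.43 to -0.34) and MARVELD1 (from 0.36 to 0.47) kept their direction and call under all 13 alternatives. CLDN7 was called in 11 of them, CLDN4 in 9 and DSC3 in 8, and each kept its direction in all 13. With library-size scaling DSC3 was not called (0.28). When single libraries were left out, the number of called genes ran from 627 to 1473, that of called junction genes from 5 to 8, with 2 to 4 of them lower in L1low, and that of the second list from 3 to 6. The lowest counts were 674 without L1high replicate 1 and 627 without L1low replicate 2, each with the same 5 junction genes (DSP, GJB2, GJB6, MARVELD1 and NECTIN4). The other 4 fits with a library left out called between 1175 and 1473 genes, and the cause was not tested. Leaving out L1high replicate 3 gives the comparison of the authors' sheet.

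The replicate numbers do not pair the samples in the labels. Deviations of same-numbered libraries from their group means correlated at 0.074, 0.091 and 0.21 across genes, and every library correlated best with its own number, a hint from the data and not the design. With the replicate number as a block, 2363 genes were called, and 10 junction genes, CLDN10 (-0.27) and PARD3 (0.26) being added to the 8. Over 247 values of 19 results, 227 stayed on the same side of the threshold with the same sign, or within 1.5 times the count, 11 lost their call, 9 counts moved and no called value reversed. The filter on low counts removed no junction gene in the fit as reported and 1 at 10 counts in every library. Depth limits the low genes: the 95% interval reached 0.99 on the log2 scale for CLDN16.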
